A study of Mus musculus with 10 samples.

Results

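The 35 genes described here encode the enzymes and transporters of glycolysis, the sensors of oxygen and a set of well known hypoxia target genes, and they were found by gene symbol among the 47643 genes of the deposited tables. RNA was sequenced from 10 mouse melanomas, 5 with the genotype Fes-/- (Fes KO) and 5 with Fes+/+ (Fes WT). Every tumour also carried the alleles Tyr::CreERT2/+ and BRafV600E/+, and tumours in both groups were started by painting 5 mM 4-hydroxytamoxifen on the skin of the back. In this widely used model the tyrosinase promoter drives a tamoxifen-inducible Cre recombinase in melanocytes, so that an oncogenic Braf is switched on in those cells. Fes encodes a non-receptor tyrosine kinase, and the comparison asks how melanomas with the Fes-/- genotype differ from those with Fes+/+. Whether each tumour is from its own mouse is not stated, so every p-value reflects variation among these 10 samples, which may be partly technical.

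Glycolysis splits glucose into pyruvate: glucose enters through facilitative transporters, hexokinases trap it as glucose 6-phosphate, and pyruvate is either passed to mitochondria or reduced to lactate and exported with a proton. When oxygen is low, prolyl hydroxylases of the Egln family no longer mark the HIF alpha subunits (Hif1a, Epas1) for degradation, and HIF dimers bind the hypoxia response element in many glycolytic promoters. HIF alpha is controlled mainly at the protein level, so the mRNA of Hif1a does not report HIF activity. Melanomas often run glycolysis with lactate export also where oxygen is present.

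Total counts per tumour ranged from 13226783 to 16599120. Levels are given as CPM, the counts of a gene scaled by the depth of its library. Fes mRNA averaged 38.9 ± 11.5 CPM (SD, n = 5) in the Fes KO tumours against 81.3 ± 12.7 CPM in the Fes WT tumours without overlap, and the log2 fold change was -1.06 ± 0.19 (SE; edgeR quasi-likelihood test, adjusted p = 0.0846). Sox10, a marker of the melanocyte lineage, had means of 742.5 ± 218 CPM (Fes KO) and 637 ± 159 CPM (Fes WT). Mitf, the lineage's transcription factor, averaged 32.4 and 34.7 CPM. The 10 melanocyte markers summed to 809.8 to 1039 CPM in Fes KO and 521 to 869 CPM in Fes WT, and of these 8 were tested and 0 passed. Sox10 weighs heavily in these sums, with 969.5 of the 1039 CPM in Fes KO 1. Of the 8 tested, 4 had an unadjusted p below 0.05 by edgeR, beside 9.62% of all genes. These were the pigment genes Tyr, Dct, Mlana and Slc45a2, all with a higher mean in Fes KO, with Tyr at 13.2 ± 21.3 and 1.12 ± 0.753 CPM. They were highest in Fes KO 2, where Sox10 was lowest, at 392 CPM. Fes KO 5 was low in each, at 0.583 CPM of Tyr, 1.89 of Dct, 0 of Mlana and 0.219 of Slc45a2. Skeletal muscle transcripts stood out in Fes WT 3 (18 markers summing to 18619 CPM) and to a lesser degree in Fes KO 2 (2256 CPM), and 16 keratinocyte markers summed to 7650 CPM in Fes KO 2 against 15.4 to 314 CPM in the other 9 tumours. The 8 adipocyte markers (445 and 427 CPM, at most 184 CPM elsewhere) and the 10 proliferation markers (675 and 567 CPM, at most 382 CPM elsewhere) were also highest in Fes KO 2 and Fes WT 3, and the part of these lists in the results was not tested. Xist was read at 670 to 720 CPM in Fes KO 1, Fes KO 2 and Fes WT 5 and stayed at or below 0.678 CPM elsewhere. In bulk tumour RNA, fewer cells of a type and less RNA per cell cannot be told apart.

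The hypoxia response element has a core that reads ACGTG, or in some genes the variant GCGTG. On the opposite strand the first reads CACGT while the second appears there as CACGC. In the promoters, 28 of the 32 members with a promoter window in the RefSeq table for GRCm38.p6 held at least 1 copy, beside 12628 of the 27025 genes of that table. A window runs from 250 bases before to 50 bases after a start site. Counted by window, 34 of 42 member windows (80.95%) held the core, beside 14380 of the 32851 windows of all genes (43.77%). A core of 5 letters occurs often by its letters alone, and CACGTG counts as a match on each strand. The windows of all genes were not matched to those of the members in base content or expression. The promoters below were chosen to show some of the pathway's enzymes and target genes to which the values return, with core matches in capitals: Ldha (chr7:46845554-46845853, plus strand, 7 matches), Pgk1 (chrX:106186850-106187149, plus strand, 2 matches), P4ha2 (chr11:54100674-54100973, plus strand, 4 matches), Adm (chr7:110627407-110627706, plus strand, 2 matches) and Egln3 (chr12:54203825-54204124, minus strand, 1 match). Ldha has another window, not shown, with 2 matches.
Ldha: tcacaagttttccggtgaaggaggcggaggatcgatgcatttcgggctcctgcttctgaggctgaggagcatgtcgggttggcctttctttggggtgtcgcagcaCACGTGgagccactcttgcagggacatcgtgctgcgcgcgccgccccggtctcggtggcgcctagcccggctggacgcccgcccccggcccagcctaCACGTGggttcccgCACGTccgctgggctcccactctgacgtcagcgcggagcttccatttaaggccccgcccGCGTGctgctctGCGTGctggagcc
Pgk1: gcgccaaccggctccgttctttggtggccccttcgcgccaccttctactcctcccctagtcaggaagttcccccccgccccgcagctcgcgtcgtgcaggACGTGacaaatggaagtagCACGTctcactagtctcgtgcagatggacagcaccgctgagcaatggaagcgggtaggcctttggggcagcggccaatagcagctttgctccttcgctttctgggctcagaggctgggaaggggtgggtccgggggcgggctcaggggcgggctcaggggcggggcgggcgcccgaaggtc
P4ha2: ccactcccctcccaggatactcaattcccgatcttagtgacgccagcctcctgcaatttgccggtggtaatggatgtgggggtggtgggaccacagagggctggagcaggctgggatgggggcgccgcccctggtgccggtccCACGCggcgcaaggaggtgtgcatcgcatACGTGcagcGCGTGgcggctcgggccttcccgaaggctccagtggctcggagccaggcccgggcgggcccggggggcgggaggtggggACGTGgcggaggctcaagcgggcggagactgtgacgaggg
Adm: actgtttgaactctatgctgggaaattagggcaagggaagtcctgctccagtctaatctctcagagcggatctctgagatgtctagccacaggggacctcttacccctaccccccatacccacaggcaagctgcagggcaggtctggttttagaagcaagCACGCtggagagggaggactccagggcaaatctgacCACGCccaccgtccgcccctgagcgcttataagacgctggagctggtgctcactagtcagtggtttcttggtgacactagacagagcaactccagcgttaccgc
Egln3: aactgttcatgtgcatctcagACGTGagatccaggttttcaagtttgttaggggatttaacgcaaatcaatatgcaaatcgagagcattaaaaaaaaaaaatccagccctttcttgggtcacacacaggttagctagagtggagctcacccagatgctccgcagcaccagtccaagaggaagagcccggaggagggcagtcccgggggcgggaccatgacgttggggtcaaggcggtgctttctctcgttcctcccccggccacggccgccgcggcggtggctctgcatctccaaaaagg
The Ldha and P4ha2 windows are the densest of the 5, and the Egln3 window holds its single match far from the start site. A match is a description of the letters and not a bound site, since no binding was measured in these tumours.

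All 35 members passed the filter on low counts and were tested among 14816 genes. None passed an adjusted p of 0.05 by edgeR, where 26 genes (0.175% of those tested) did. By DESeq2 0 of the 35 passed as well, beside 1.78% of all genes. At an unadjusted p below 0.05 there were 3 members, Ndrg1, Adm and P4ha2, all lower in Fes KO, and the share among all genes was 9.62%. The lowest adjusted p of a member was 0.313. No member had groups that did not overlap, which 1.9% of all tested genes had. The fitted log2 fold change (Fes KO minus Fes WT) was above 0 for 12 members and below 0 for 23, against 52.4% of all genes above 0, and its median was -0.11 for the members and 0.01 for all tested genes. For 28 of the 35 the difference was smaller than the SD within groups, and the same held for 76.0% of all tested genes. Members varied more between tumours of 1 group than genes at large: their median within-group SD was 0.46 on the log2 scale, against 0.29 for all tested genes.

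**Figure D1:**
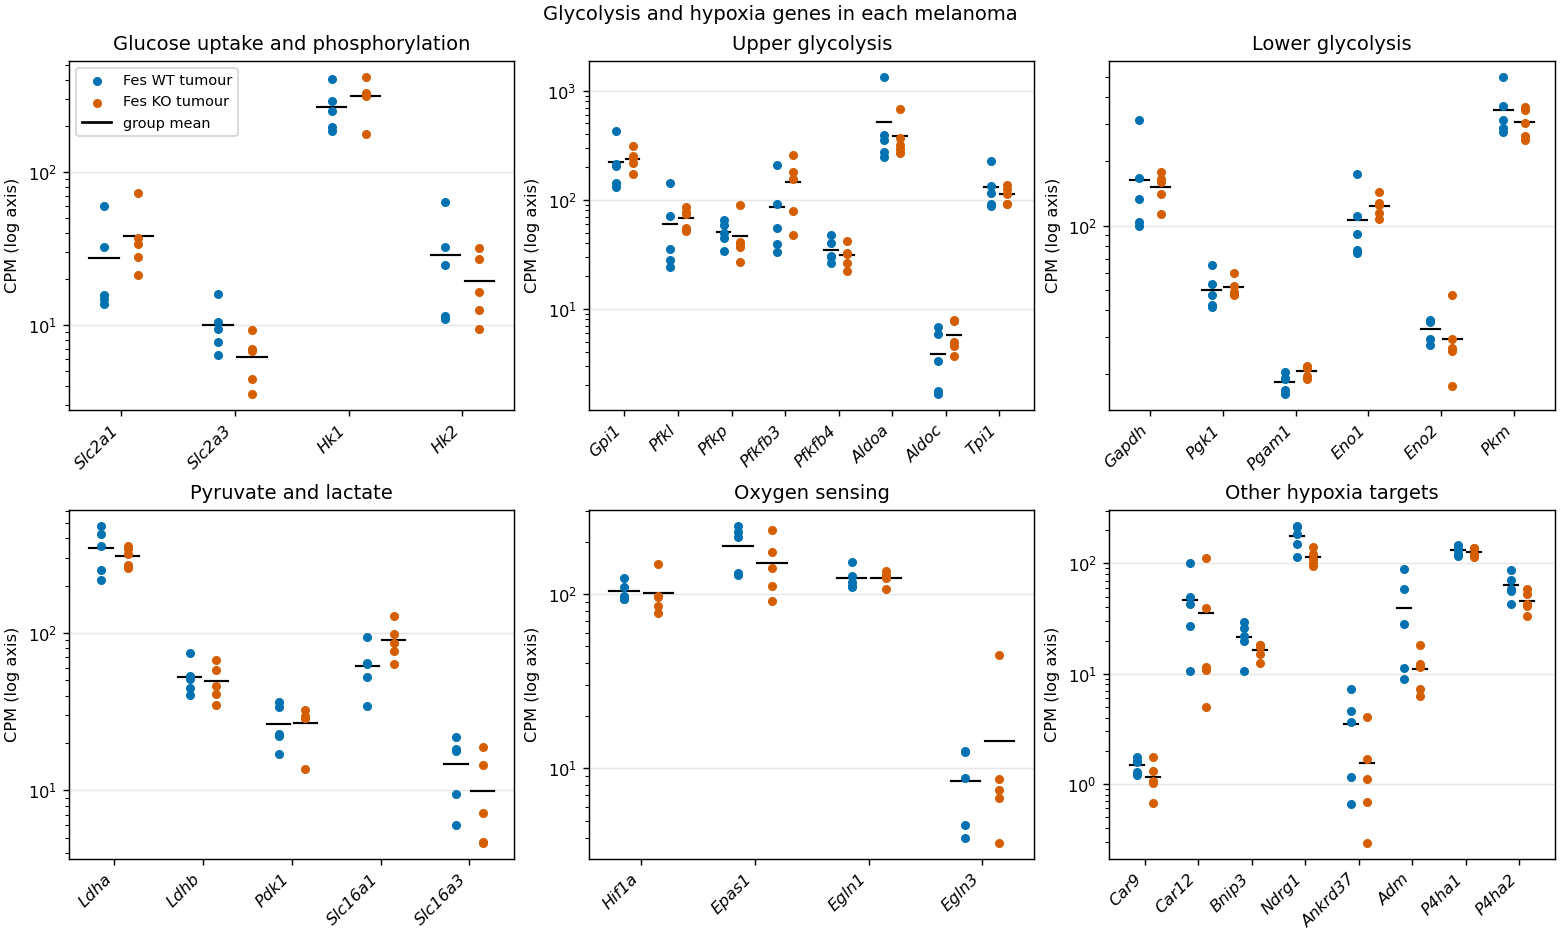
CPM of the 35 genes in each tumour on a log axis, in 6 panels by role. Each point is 1 tumour (blue Fes WT, orange Fes KO) and each black bar a group mean; in every gene the points of the groups overlap.

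**Figure D2:**
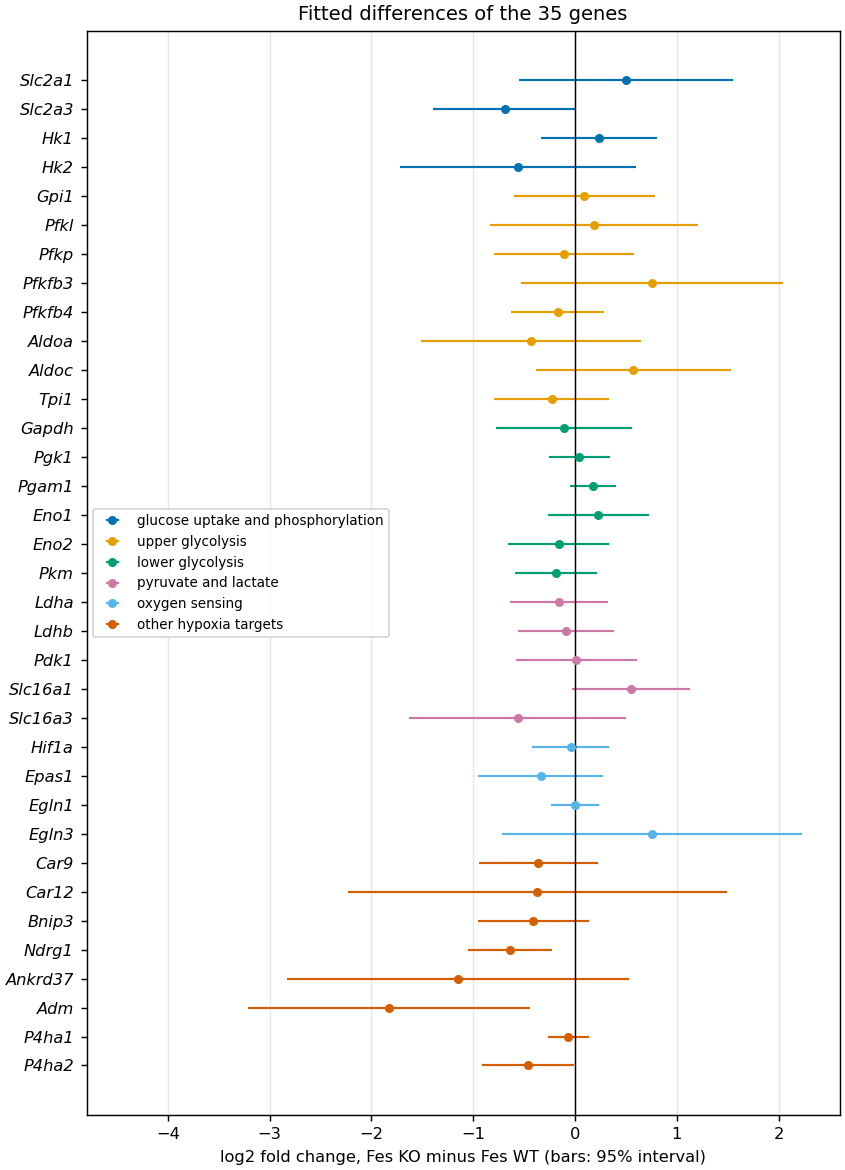
Fitted log2 fold change of each gene, Fes KO minus Fes WT, with its 95% interval and coloured by role. The 8 other hypoxia targets all lie below 0, and the intervals of Ndrg1, Adm and P4ha2 leave out 0 before adjustment for the number of genes. Egln3, a hypoxia-induced gene shown with the oxygen-sensing genes, lies at 0.76.

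The group with the lowest median was that of the hypoxia targets outside glycolysis, at -0.44, with 0 of 8 members called, 8 of 8 fitted below 0 and 3 of 8 at an unadjusted p below 0.05. A further list of 26 HIF target genes that are not members was less uniform, with 17 fitted below 0, 9 above 0 and a median of -0.15. Of these 26, 0 were called and 4 had an unadjusted p below 0.05 (edgeR), 3 lower and 1 higher in Fes KO. The share of all genes at that threshold was 9.62%. Ndrg1 (ENSMUSG00000005125, GRCm38 chromosome 15, 66929318 to 66969640), a stress- and hypoxia-responsive gene, was read at 122, 101, 95.5, 140.3 and 110.5 CPM in Fes KO 1 to 5. It was read at 186, 219.7, 115, 216 and 149.7 CPM in Fes WT 1 to 5. Only Fes WT 3 fell among the Fes KO values. The log2 fold change was -0.64 ± 0.18 (SE; 95% interval -1.05 to -0.23; edgeR, unadjusted p = 0.00600, adjusted p = 0.313), and DESeq2 gave an adjusted p of 0.0725.

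Adm (ENSMUSG00000030790, chromosome 7, 110627661 to 110629820) encodes adrenomedullin, a vasodilator peptide. Its level was 6.31, 11.5, 12.3, 18.0 and 7.29 CPM in Fes KO 1 to 5, and 89.4, 59.2, 11.2, 8.97 and 28.05 CPM in Fes WT 1 to 5. Fes WT 1, 2 and 5 lay above every Fes KO tumour, and Fes WT 3 and 4 lay among them. The log2 fold change of -1.83 ± 0.62 (SE) did not pass the test (edgeR, unadjusted p = 0.0146, adjusted p = 0.388; DESeq2, adjusted p = 0.0795), and it ranged from -2.08 to -1.27 over the alternatives, the smallest of them without Fes WT 1. Counting at an adjusted p below 0.1, DESeq2 placed 2 members there, Ndrg1 and Adm, beside 2.8% of all genes. The 12 macrophage markers summed to 3549 CPM in Fes WT 1, the tumour with the most Adm, within ranges of 1022 to 2241 CPM in Fes KO and 1607 to 3549 CPM in Fes WT. Fes WT 5 and Fes WT 3 had sums of 2685 and 2578 CPM, with Adm at 28.05 and 11.2 CPM. Fes WT 2, second in Adm at 59.2 CPM, had a sum of 2054 CPM, below the 2241 CPM of Fes KO 4. Of these markers 0 of 12 passed the adjusted test, 6 had an unadjusted p below 0.05, beside 9.62% of all genes, and none was at 0 in all tumours. Their part in the result was not tested.

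P4ha2 (ENSMUSG00000018906, chromosome 11, 54100095 to 54131665) and P4ha1 encode catalytic subunits of the collagen prolyl hydroxylase, which stabilises the collagen helix. P4ha2 was read at 53.0, 58.9, 33.3, 41.4 and 43.3 CPM in Fes KO 1 to 5 and at 56.8, 71.4, 86.6, 43.1 and 58.8 CPM in Fes WT 1 to 5, so that Fes WT 2 and 3 lay above the Fes KO range and Fes WT 1, 4 and 5 inside it (log2 fold change -0.46 ± 0.20, SE; unadjusted p = 0.0451, adjusted p = 0.508, edgeR). P4ha1 was the steadiest of the 35 genes, with a 1.30-fold range over the 10 tumours. Its means were 126 ± 10.7 CPM in Fes KO against 132 ± 12.9 CPM in Fes WT, and the 95% interval of its log2 fold change was -0.27 to 0.13.

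Ankrd37, a small ankyrin repeat protein gene, had the widest range, 25.1-fold over the 10 tumours, at low levels (4 to 115 counts). Fes KO 1 to 5 held 0.694, 1.68, 1.11, 4.05 and 0.292 CPM, and Fes WT 1 to 5 held 4.64, 7.32, 0.656, 1.16 and 3.66 CPM. High and low tumours occurred in both groups (log2 fold change -1.15 ± 0.76, SE; adjusted p = 0.650, edgeR), and the value was -0.68 without Fes WT 2 and -1.87 without Fes KO 4. Bnip3, which acts in mitochondrial autophagy, averaged 16.2 ± 2.40 CPM in Fes KO (12.6, 18.1, 15.0, 17.5 and 18.1) and 21.6 ± 7.26 CPM in Fes WT (19.7, 29.6, 21.9, 10.6 and 26.2), with a log2 fold change of -0.41, which was -0.27 without Fes WT 2. The carbonic anhydrases Car9 and Car12 hydrate carbon dioxide at the cell surface and help to export acid. Car9 was low (11 to 29 counts), at 1.07, 1.75, 0.678, 1.31 and 1.02 CPM in Fes KO 1 to 5 and 1.63, 1.21, 1.57, 1.77 and 1.30 CPM in Fes WT 1 to 5. Car12 was read at 39.7, 113, 10.8, 11.4 and 4.96 CPM in Fes KO 1 to 5 and at 50.03, 10.7, 27.0, 42.5 and 102 CPM in Fes WT 1 to 5. Its highest tumour was Fes KO 2, at 6.73 times the mean of the other Fes KO tumours, and the log2 fold change moved from -0.37 to -1.48 without that tumour and to 0.14 without Fes WT 5.

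Among the 4 oxygen-sensing genes 0 passed the test, 1 was fitted above 0 and 3 below, and the median log2 fold change was -0.02. Hif1a averaged 101 ± 27.6 CPM in Fes KO against 104 ± 13.2 CPM in Fes WT. Epas1, the HIF alpha subunit typical of endothelium, was read at 111, 91.7, 142, 173 and 233 CPM in Fes KO 1 to 5 and at 247, 227, 133, 129 and 214 CPM in Fes WT 1 to 5, with Fes KO 1 and 2 below every Fes WT tumour, Fes WT 1 above every Fes KO tumour and the rest interleaved (log2 fold change -0.34 ± 0.28, SE; adjusted p = 0.723, edgeR; -0.55 without Fes KO 5). Egln1, the main HIF prolyl hydroxylase, was 124 ± 10.8 CPM in Fes KO against 124 ± 17.7 CPM in Fes WT, and the 95% interval of its log2 fold change ran from -0.24 to 0.24. Egln3, the hydroxylase gene most strongly induced by hypoxia in many cells, was read at 3.72, 44.9, 8.69, 7.52 and 6.78 CPM in Fes KO and at 3.98, 12.4, 12.5, 4.70 and 8.77 CPM in Fes WT. A single tumour, Fes KO 2, stood 6.72 times above the mean of the other Fes KO tumours. With it the log2 fold change was 0.76 ± 0.67 (SE), and without it -0.36. The same tumour held most of the keratinocyte transcripts: of those 16 markers 5 were tested, 0 passed, 1 had an unadjusted p below 0.05 and none was at 0 in all tumours, and their part in the values of Egln3 and Car12 was not tested.

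Glucose uptake and phosphorylation had 0 of 4 genes called, 2 fitted above and 2 below 0 and a median of -0.16. Slc2a1 encodes the widespread basal glucose transporter. Its values were 27.8, 36.8, 21.1, 72.6 and 33.8 CPM in Fes KO 1 to 5 and 14.8, 32.5, 13.6, 15.7 and 59.5 CPM in Fes WT 1 to 5, with Fes KO 4 and Fes WT 5 highest. The same tumours had the highest sums of neutrophil markers, whose part in the value of Slc2a1 was not tested. Slc2a3, a high-affinity transporter abundant in neurons and leukocytes, went the other way in its means, 6.19 ± 2.27 CPM in Fes KO (3.53, 6.92, 4.44, 9.28 and 6.78) and 10.003 ± 3.73 CPM in Fes WT (9.40, 16.0, 6.37, 7.69 and 10.5). Neither passed the test, and single tumours moved both, Slc2a1 to 0.13 without Fes KO 4 and to 1.00 without Fes WT 5, and Slc2a3 to -0.46 without Fes WT 2 (log2 fold changes over all tumours: Slc2a1 0.50 ± 0.47, SE, adjusted p = 0.766; Slc2a3 -0.69 ± 0.32, SE, adjusted p = 0.524; edgeR). Hk1, the housekeeping hexokinase, averaged 312 ± 85.9 and 265 ± 87.6 CPM. Hk2, the inducible hexokinase also used by muscle, was read at 12.5, 31.9, 9.37, 27.1 and 16.3 CPM in Fes KO against 11.0, 32.3, 64.0, 11.5 and 24.5 CPM in Fes WT. The muscle-rich Fes WT 3 was highest, at 3.23 times the mean of the other Fes WT tumours, and the log2 fold change of Hk2 went from -0.56 to -0.03 without it.

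In upper glycolysis, from glucose 6-phosphate to the triose phosphates, 0 of 8 genes passed, 4 were fitted above and 4 below 0, and the median was -0.01. Pfkfb3 makes fructose 2,6-bisphosphate, the activator of phosphofructokinase. Fes KO 1 to 5 held 156, 47.5, 179, 79.2 and 258 CPM of it, and Fes WT 1 to 5 held 32.9, 92.1, 55.1, 39.2 and 206 CPM. Fes WT 5 was 3.77 times above the mean of the other Fes WT tumours, and the log2 fold change was 0.76 ± 0.58 (SE; adjusted p = 0.700, edgeR) with it, 1.395 without it and 0.44 without Fes KO 5, the highest Fes KO tumour. The liver-type phosphofructokinase gene Pfkl had the same high tumour: 142 CPM in Fes WT 5 beside 24.3 to 71.1 CPM in the other Fes WT tumours and 51.3 to 86.4 CPM in Fes KO. Gpi1, the isomerase of the step before, was 430 CPM in Fes WT 5, beside 132 to 212 CPM in the other Fes WT tumours. Its log2 fold change was 0.09 with that tumour and 0.47 without it.

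Aldoa, the aldolase of muscle and most other tissues (ENSMUSG00000030695, chromosome 7, 126795234 to 126800751), was read at 270.1, 683, 289.97, 316 and 369.6 CPM in Fes KO 1 to 5 and at 272, 356, 1334, 245 and 395 CPM in Fes WT 1 to 5. The highest Fes WT tumour and the highest Fes KO tumour were the 2 with the most muscle transcripts. The log2 fold change was -0.43 ± 0.49 (SE; adjusted p = 0.807, edgeR) over all tumours, 0.28 without Fes WT 3 and -0.76 without Fes KO 2. Of the 18 skeletal muscle markers, which summed to 21.6 to 2256 CPM in Fes KO and 17.9 to 18619 CPM in Fes WT, 16 were tested, 0 passed, 1 had an unadjusted p below 0.05 and none was at 0 in all tumours. Their part in the value of Aldoa was not tested. Aldoc, the brain-type aldolase, was low, at 5.79 ± 1.96 CPM in Fes KO (4.60, 7.80, 4.93, 3.66 and 7.94) and 3.89 ± 2.36 CPM in Fes WT (3.33, 6.81, 1.77, 1.65 and 5.87). Pfkp, Pfkfb4 and Tpi1 had log2 fold changes of -0.11, -0.17 and -0.23. For all 8 genes of upper glycolysis the difference was smaller than the within-group SD.

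Lower glycolysis, from Gapdh to pyruvate kinase, had 0 of 6 genes called, 3 fitted above and 3 below 0 and a median of -0.03. Gapdh, the triose phosphate dehydrogenase, had the widest range of the 6, with 114, 160.3, 140.4, 165 and 178 CPM in Fes KO 1 to 5 and 104, 134, 312, 99.2 and 167 CPM in Fes WT 1 to 5. Fes WT 3 was again the highest tumour, and the log2 fold change of -0.11 became 0.27 without it. Pgam1, the mutase that moves the phosphate of phosphoglycerate, was read at 19.7, 21.5, 21.4, 21.9 and 19.0 CPM in Fes KO against 16.1, 19.2, 19.0, 16.8 and 20.6 CPM in Fes WT (log2 fold change 0.18 ± 0.10, SE; adjusted p = 0.599, edgeR). Pgk1, which makes the first ATP of the pathway, was 51.2 ± 5.31 CPM in Fes KO against 49.8 ± 9.85 CPM in Fes WT. Eno1 was 124 ± 14.1 and 106 ± 41.4 CPM, the neuronal enolase Eno2 29.3 ± 10.8 and 32.7 ± 4.07 CPM, and Pkm, the pyruvate kinase of tumours and muscle, 306 ± 48.5 and 347 ± 91.2 CPM.

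Of the 5 genes that set the fate of pyruvate and lactate 0 passed, 2 were fitted above and 3 below 0, and the median was -0.09. The lactate dehydrogenase genes Ldha and Ldhb had log2 fold changes of -0.16 ± 0.22 and -0.09 ± 0.21 (SE). Slc16a1, a proton-linked lactate carrier that works in both directions, was 87.0, 63.3, 129, 76.4 and 98.0 CPM in Fes KO 1 to 5 and 52.4, 63.7, 34.5, 64.7 and 94.7 CPM in Fes WT 1 to 5. The fitted log2 difference was 0.55 ± 0.26 (SE; edgeR, adjusted p = 0.547), and 0.75 without Fes WT 5. Slc16a3, the carrier of strongly glycolytic cells, was 7.12, 14.4, 4.62, 19.0 and 4.66 CPM in Fes KO against 9.54, 18.2, 17.8, 6.04 and 21.95 CPM in Fes WT, with low and high tumours in both groups (log2 fold change -0.56 ± 0.48, SE; adjusted p = 0.734, edgeR; -0.93 without Fes KO 4). Pdk1, the kinase that shuts pyruvate dehydrogenase, averaged 26.7 ± 7.41 and 26.5 ± 8.33 CPM, and Fes KO 1 was its lowest tumour at 13.7 CPM.

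Single tumours held many of the highest and lowest values. Fes WT 3 was the highest of the 10 tumours for 8 members (22.86%, beside 10.53% of all tested genes): Hk2, Aldoa, Tpi1, Gapdh, Pgk1, Pkm, Ldha and P4ha2. Fes WT 5 was highest for 7 (20%, beside 11.92%): Gpi1, Pfkl, Pfkfb4, Eno1, Ldhb, Pdk1 and Slc16a3. Fes WT 2 was highest for 6 (17.14%, beside 6.763%): Slc2a3, Egln1, Bnip3, Ndrg1, Ankrd37 and P4ha1. Fes WT 4 was lowest for 9 members (25.71%, beside 11.5% of all tested genes), among them Aldoa, Gapdh, Ldha and Eno1. Fes KO 3 was lowest for 7 (20%, beside 7.586%): Hk2, Pfkp, Pfkfb4, Slc16a3, Car9, Ndrg1 and P4ha2. Fes KO 1 was lowest for 5 (14.29%, beside 7.748%): Slc2a3, Pkm, Pdk1, Egln3 and Adm.

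**Figure D3:**
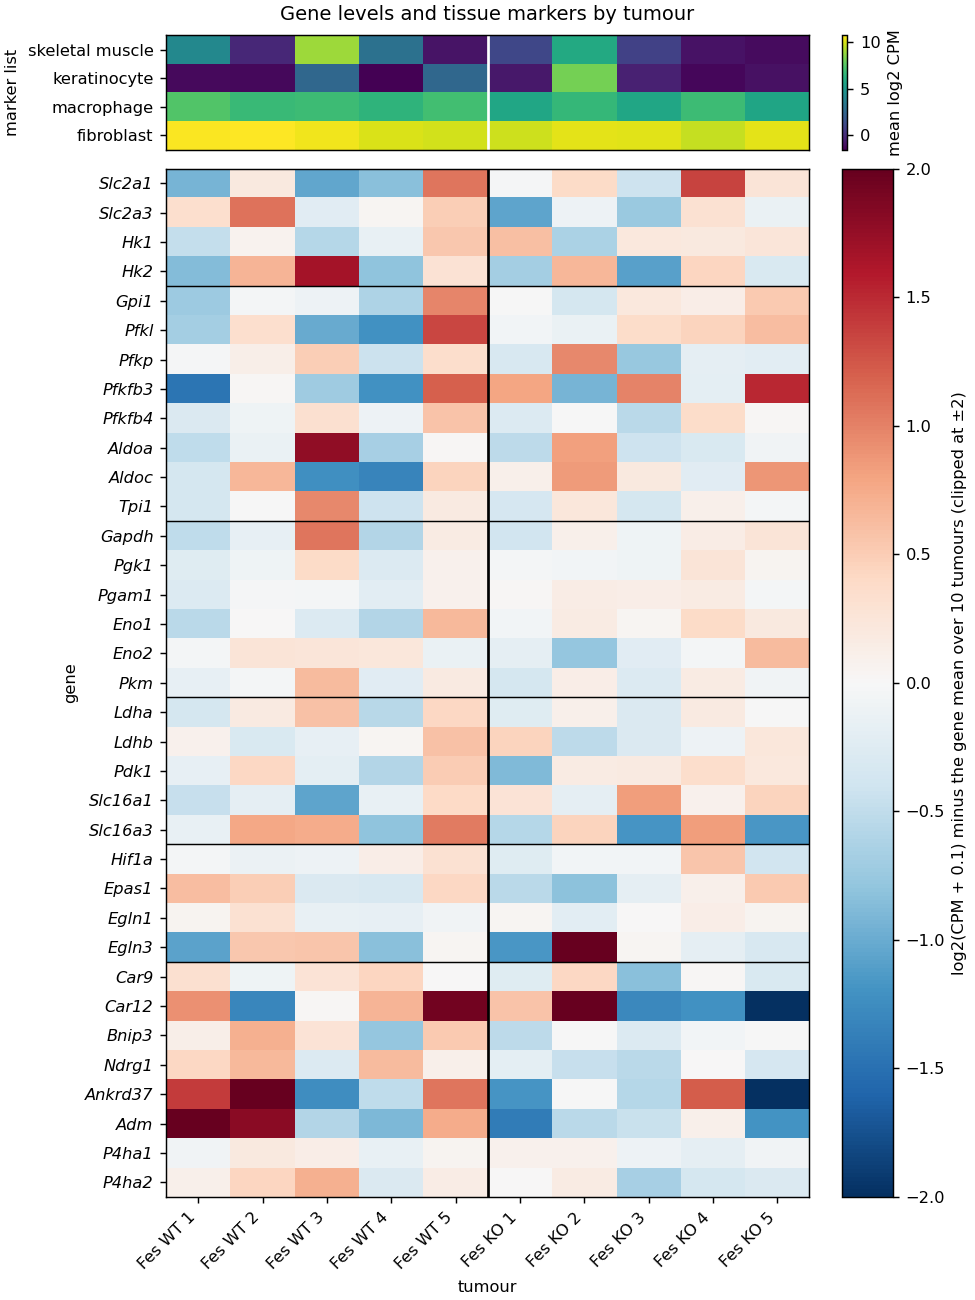
Level of each gene in each tumour as the difference from its own mean over the 10 tumours (log2 scale, red high and blue low), under a strip with the mean log2 CPM of 4 marker lists. Fes WT 3 is high in Aldoa, Gapdh and muscle markers, and Fes KO 2 in Egln3, Car12 and keratinocyte markers.

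Leaving out Fes WT 5 put 8 members at an unadjusted p below 0.05, beside 11.2% of all genes: Slc2a1, Gpi1, Pfkl, Pfkfb3, Eno1 and Slc16a1 higher in Fes KO, and Adm and Ndrg1 lower. Fes WT 5 was the highest Fes WT tumour for each of those higher in Fes KO, so leaving it out had to raise their differences. The log2 fold change of Slc2a1 then was 1.00, that of Pfkl 0.79 and that of Eno1 0.49, and the lowest adjusted p of a member was 0.220 (edgeR). Other exclusions moved the same genes down: Slc2a1 was 0.13 without Fes KO 4, Pfkfb3 0.44 without Fes KO 5, Gpi1 -0.051 without Fes WT 1, and Pfkl -0.015 and Eno1 0.12 without Fes WT 4. With the mean levels of muscle and keratinocyte markers as covariates, Slc2a1 was 0.14, Pfkfb3 0.43, Gpi1 -0.13, Pfkl -0.12 and Eno1 0.014. Without all 3 tumours that express Xist there were 10 such members, beside 13.7% of all genes, 7 higher and 3 lower, with a lowest adjusted p of 0.167. These 3 tumours include Fes WT 5, so this exclusion is not separate from the first. Neither exclusion brought a member past an adjusted p of 0.05. Xist-expressing tumours were 2 of 5 in Fes KO and 1 of 5 in Fes WT, and their part in the values was not tested.

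**Figure D4:**
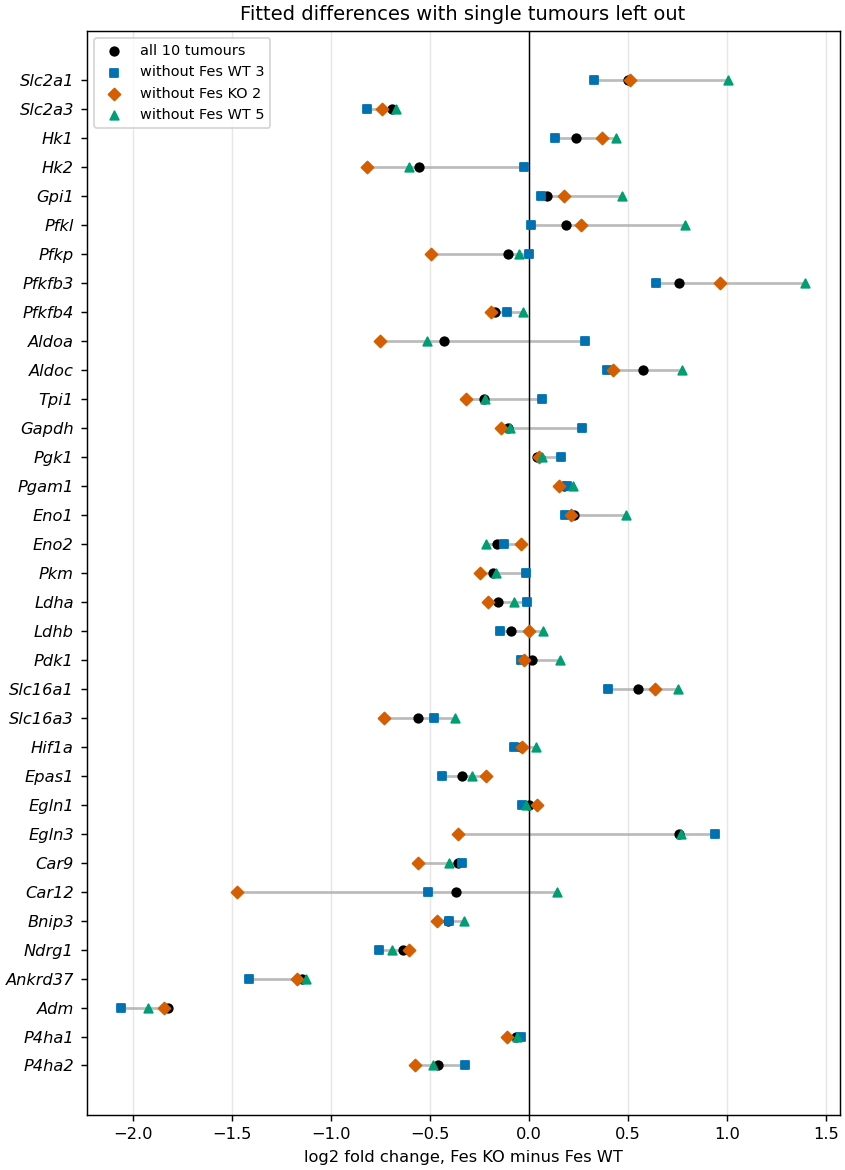
Fitted log2 fold change of each gene with all 10 tumours (black) and without Fes WT 3, Fes KO 2 or Fes WT 5. Pfkl, Pfkfb3 and Slc2a1 move up without Fes WT 5, Aldoa moves from -0.43 to 0.28 without Fes WT 3, and Egln3 from 0.76 to -0.36 without Fes KO 2.

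Within a step of the pathway, levels of isozymes were set side by side as shares of the step, from counts per exonic length. Exonic length is the union of all annotated exons of a gene, with 6675 bases for Pfkl, 3340 for Pfkm and 13401 for Pfkp. A union can be longer than the transcript that is expressed, which would lower the share of that gene. Hk1 made up 86.9 ± 8.44% of hexokinase transcripts in Fes KO and 80.1 ± 11.0% in Fes WT, and Aldoa 98.6% and 99.0% of aldolase. By this measure the muscle phosphofructokinase Pfkm, which is not among the 35, was on average the largest of its step. Its share was 54.5 ± 5.57% in Fes KO and 63.4 ± 21.7% in Fes WT, and reached 91.9% in Fes WT 3. Pfkl took 52.5% in Fes WT 5 and 3.76% in Fes WT 3. Ldha made up 74.7 ± 6.46% of Ldha plus Ldhb in Fes KO and 74.6 ± 7.35% in Fes WT. Slc2a3 made up 7.60 ± 1.67% of Slc2a1 plus Slc2a3 in Fes KO (5.79 to 9.22%) and 17.6 ± 5.83% in Fes WT, where Fes WT 5 at 7.88% lay inside the Fes KO range and the other 4 lay at 18.4 to 23.6%. No share was free of overlap between the groups. The scaling by length matters: from counts alone Pfkl was the largest of its step in Fes KO (41.0%, Pfkm 32.5%), Slc2a3 took 14.5% in Fes KO and 30.3% in Fes WT, and 13 of 34 group means moved by more than the SD between tumours.

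**Figure D5:**
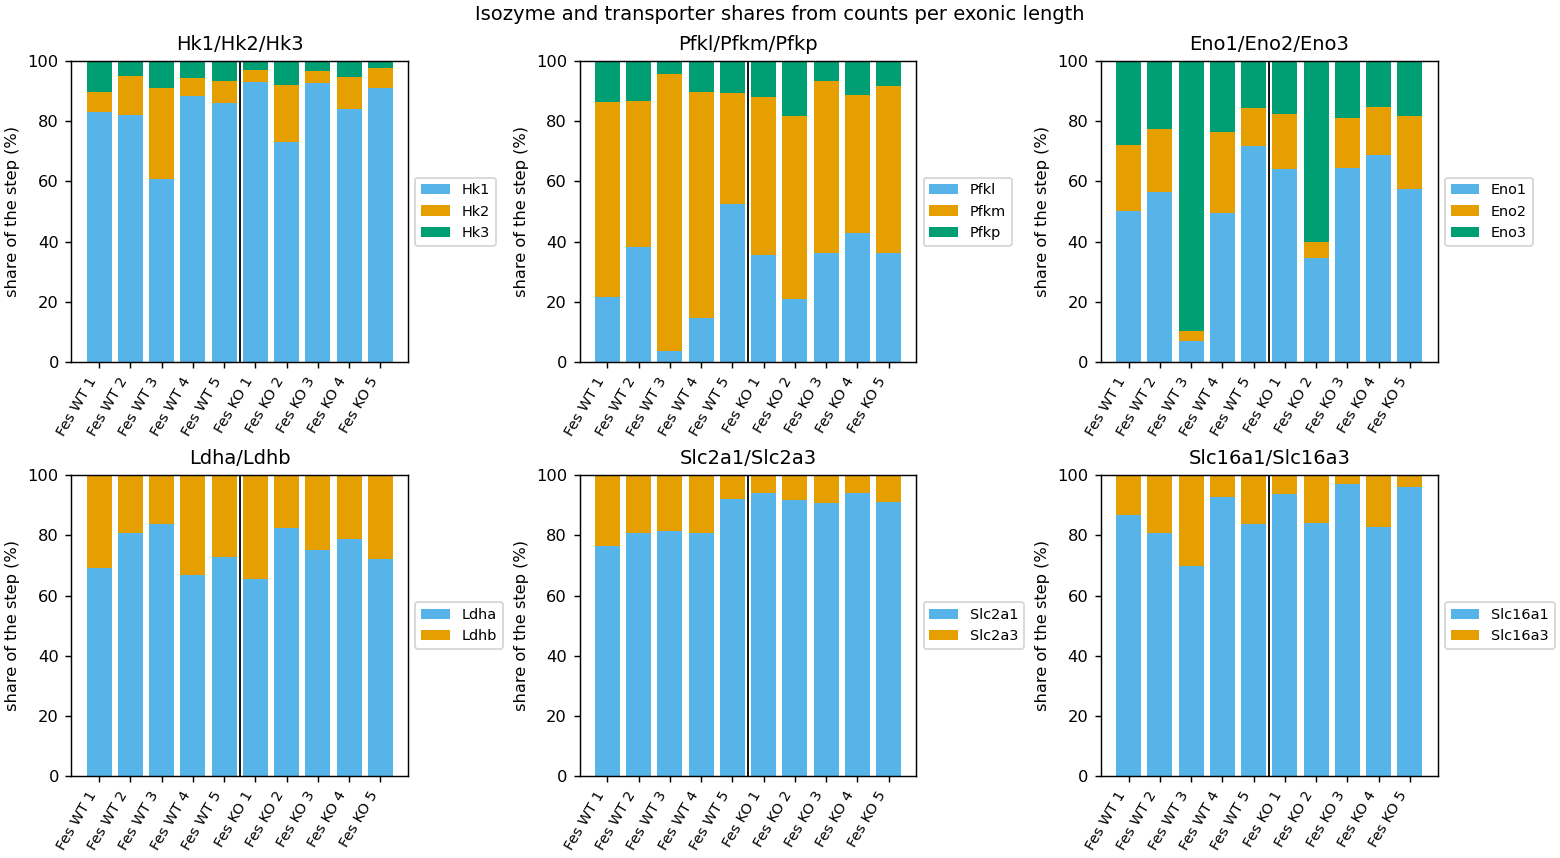
Share of each isozyme or transporter within its step in each tumour, in percent, from counts per exonic length; the vertical line divides Fes WT from Fes KO. The muscle forms Pfkm and Eno3 fill most of their steps in Fes WT 3 (91.9% and 89.8%), and Slc2a3 takes a larger share in 4 of the 5 Fes WT tumours.

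A list of 63 further genes of the same pathways (other isozymes, mitochondrial pyruvate entry, oxygen sensing and other HIF target genes) gave 56 that were tested. By edgeR 0 of the 56 passed, 9 had an unadjusted p below 0.05 (6 lower and 3 higher in Fes KO), 22 were fitted above and 34 below 0, the median was -0.06 and 2 had groups without overlap, among them Slc16a4. DESeq2 called 2, among them Pdk4. The shares over all tested genes were 0.175% called, 9.62% at the unadjusted threshold and 1.9% without overlap, and 1.78% called by DESeq2. Pdk4, a pyruvate dehydrogenase kinase of muscle and fasting tissues, was 3.50 to 7.98 CPM in Fes KO against 25.2, 23.0, 199, 7.26 and 4.65 CPM in Fes WT. Its log2 fold change of -3.21 ± 0.96 (SE; adjusted p = 0.321 by edgeR and 0.00933 by DESeq2) went to -1.43 without the muscle-rich Fes WT 3. Slc16a4, a carrier of the same family as Slc16a1, lay at 3.73 to 5.90 CPM in Fes KO and 2.09 to 3.51 CPM in Fes WT (log2 fold change 0.61 ± 0.20, SE; adjusted p = 0.373, edgeR). Pdk3, Angptl4 and Arnt2 had log2 fold changes of 0.40, -1.36 and -1.09, none past the adjusted test, and Angptl4 was -0.90 without Fes WT 3. Bsg, the chaperone that carries the lactate transporters to the membrane, differed little, with 580.1 ± 108 CPM in Fes KO against 558 ± 71.9 CPM in Fes WT. The collagen-modifying genes Loxl2 and Plod1 had log2 fold changes of 0.05 and -0.05.

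Several glycolytic genes have near-identical copies in the genome, and the setting used for reads that match more than 1 place is not given in the sources used here. Of all 50-base stretches of its transcripts, Pgk1 shared 53.9% with other genes, Bnip3 47.2%, Pgam1 36.2%, Eno1 26.0%, Pkm 25.8%, Gapdh 25.1%, Ldhb 21.0%, Ankrd37 17.04% and Gpi1 15.8%. Levels of these 9 are therefore uncertain, and those of Ankrd37 also because it overlaps its neighbours. A further 14 members shared 0.030 to 9.259%, and 12, among them Adm, Hk2, Egln3, Car12 and P4ha1, shared none. Among the non-members Loxl2 shared 45.015%.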

How the data were processed

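RNA-seq counts from 10 melanomas were used, grouped by sample title. Per the submitters' processing notes, FastQC, STAR 2.51b and Subread 1.4.6 were used, with builds mm10 and GRCm38; strand setting and read length: not given in the sources used here. The authors deposited raw counts per gene and log2 values; each deposited log2 value was reproduced, within 6.6e-11, by dividing counts by a size factor, adding 1 and taking log2. The 37 mitochondrial genes are listed at 0 counts.

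Counts of the 2 groups were compared in R 4.3.3 with edgeR 4.0.16 (TMM, filterByExpr, quasi-likelihood F test, Benjamini-Hochberg over 14816 genes, threshold 0.05). CPM used TMM-scaled library sizes. Standard errors are the log2 fold change over the root of F. The test was also run on simulated counts, whose outcome is not given here, so no rate of detection is stated. The 20 alternatives included DESeq2 1.42.0, limma 3.58.1 on the log2 values, other scalings and filters, covariates and leaving out tumours. Total counts of 13226783 to 16599120 limit precision chiefly for Car9 and Ankrd37.

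The members and lists were chosen with earlier results of these data known. Values are given for every tumour for the 12 members with the lowest p and the member with the widest range in each role, and for Aldoa, Car12 and Slc2a1, which were picked after their values were seen. Named non-members are the 6 with the lowest p and the 3 with the highest CPM, with Pfkm, Eno3, Pgam2, Slc2a4 and Gys1 picked after their values were seen; 1 of the genes the rule names and 1 allele shared by both groups are not reported here. Promoter windows are from RefSeq (GRCm38.p6), and shared stretches were counted on GENCODE M21 transcripts.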

Additional observations from a re-analysis of the deposited data

Results flagged for a closer look

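In 88 groups of 5 tumours (each listed gene in Fes KO and in Fes WT), the gap between the most extreme tumour and its neighbour was divided by the range of the group on the log2 scale, and 3 groups were above the 95% limit of 0.71. Chance alone gives about 1 in 20. Aldoa in Fes WT 3 had a ratio of 0.719, with 1334 CPM beside 245 to 395 CPM in the other Fes WT tumours; this tumour also had the highest sum of skeletal muscle markers (18619 CPM), whose part in the value was not tested. Pdk1 in Fes KO 1 had a ratio of 0.855, with 13.7 CPM beside 28.7 to 32.6 CPM. Slc16a4 in Fes WT 1 had a ratio of 0.899, with 2.09 CPM beside 3.35 to 3.51 CPM.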

How the results depend on the processing

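The 35 genes had no call under any of the 20 alternatives, and the lowest adjusted p was 0.0725 (DESeq2). Of 697 fold changes 649 kept their direction and 48, in 15 genes, turned. The count of all genes past the threshold (26) was 8 with a stricter filter, 104 with muscle and keratinocyte covariates, 64 without the Xist-expressing tumours, 300 by DESeq2, 49 at an adjusted p below 0.1 and 10 (without Fes KO 1 or 3) to 54 (without Fes WT 5) with 1 tumour left out; DESeq2 called 2 of the further pathway genes. With a replicate block 4 genes and 0 members passed. Same-numbered tumours share a replicate number in their titles. Their deviations from the group means correlated at -0.38 to 0.17, and no same-numbered tumours were each other's best match across the groups. Whether the numbers mark anything shared cannot be told from these values.

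Turned log2 fold changes were as follows. Library size alone gave Egln1 0.027. The replicate block gave Gapdh 0.022 and Egln1 0.0071. The covariates gave Gpi1 -0.13, Pfkl -0.12, Gapdh 0.029, Pdk1 -0.22 and Egln3 -0.086. Without the muscle-rich and keratinocyte-rich tumours (Fes WT 3 and Fes KO 2), Gapdh was 0.24, Eno2 0.0023, Pdk1 -0.081, Egln1 0.0073, Egln3 -0.17 and Plod1 0.00075. Without the Xist-expressing tumours, Pfkfb4 was 0.026, Ldhb 0.034, Hif1a 0.13, Egln1 0.038, Egln3 -0.14, Bsg -0.0098, Loxl2 -0.0041 and Plod1 0.061. Limma gave Gapdh 0.010 and Egln1 0.0036. With 1 tumour left out the ranges were -0.22 to 0.041 for Hif1a, -0.053 to 0.12 for Bsg, -0.11 to 0.18 for Pdk1, -0.040 to 0.085 for Egln1, -0.36 to 1.00 for Egln3, -0.14 to 0.038 for Plod1, -0.50 to 0.043 for Pfkp, -0.022 to 0.16 for Pgk1, -0.051 to 0.47 for Gpi1, -0.040 to 0.16 for Loxl2, -0.76 to 0.28 for Aldoa, -0.34 to 0.064 for Tpi1, -0.24 to 0.27 for Gapdh, -0.015 to 0.79 for Pfkl, -0.23 to 0.068 for Ldhb and -1.48 to 0.14 for Car12. The causes were not tested.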

Other observations

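Muscle forms of the glycolytic enzymes, singled out after their values were seen, were high in the same tumours as Aldoa. Eno3, the muscle enolase, reached 375 CPM in Fes WT 3 and 70.4 CPM in Fes KO 2, beside 9.46 to 14.3 CPM elsewhere. Pgam2, the muscle phosphoglycerate mutase, was 98.0 CPM in Fes WT 3 and 20.4 CPM in Fes KO 2, against 1.34 to 2.94 CPM elsewhere. Slc2a4, the insulin-regulated glucose transporter of muscle and fat, was 39.8 and 12.4 CPM in those tumours and 2.56 to 5.54 CPM in the others. Gys1, the muscle glycogen synthase, was 67.7 and 35.6 CPM there and 18.5 to 26.8 CPM in the others. The adipocyte markers were highest in the same tumours (Fes KO 2 at 445 CPM, Fes WT 3 at 427 CPM), and the part of muscle and fat in these values was not tested. None of the 4 passed the edgeR test between the groups (adjusted p of 0.626, 0.678, 0.715 and 0.712).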
